A study of Mus musculus with 4 samples.

Results

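The genes described here encode the translation initiation and elongation factors, the proteins that bring ribosome, initiator tRNA and mRNA together and then move the ribosome along the message. They were taken by symbol alone, as every gene of the deposited table whose symbol begins with Eif1, Eif2, Eif3, Eif4, Eif5, Eif6, Eef1 or Eef2, with the Eif2ak kinases left out. This gave 61 of 14435 genes. The symbols also took in 5 genes for enzymes that modify factors (Eef1akmt1, Eef1akmt2, Eef1akmt3, Eef2kmt and Eef2k) and genes for proteins that bind the factor eIF4E. All of them are counted below as factors.

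RNA was sequenced in 4 libraries of RAW264.7, an established mouse macrophage line. In 2 libraries the cells carried an shRNA against Mettl3 (shMettl3), and in 2 a nonspecific shRNA (Control). Mettl3 encodes the enzyme that methylates adenosines in mRNA. All cells had been given E. coli lipopolysaccharide (LPS) for 12 hours, so no comparison bears on LPS. For shMettl3 replicate 2, a treatment field names METTL4, whereas the title names Mettl3. The sources do not say if replicates were separate cultures or if clones were selected. The p-values therefore measure only how these samples spread, possibly for technical reasons, and effects of the knockdown cannot be told apart from other differences between the cells given each shRNA.

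In initiation, eIF2 carries the initiator tRNA to the small ribosomal subunit, and eIF2B recharges eIF2 with GTP. The eIF4F proteins (eIF4E on the cap, the scaffold eIF4G and the helicase eIF4A) and the large complex eIF3 place the mRNA, eIF1 and eIF1A help to select the start codon, and eIF5 and eIF5B complete the joining of the subunits. In elongation, eEF1A delivers aminoacyl-tRNAs, the eEF1B subunits recharge it, and eEF2 translocates the ribosome. The eIF2 step is controlled by stress kinases and the eIF4E step by mTORC1.

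Total estimated counts were between 16342313 and 17193639 per library. Mettl3 had 194 and 195 counts in shMettl3 libraries against 514 and 496 counts in Control libraries (log2 fold change -1.42, SE 0.10, edgeR adjusted p = 1.58e-06), and Mettl4 was not called (-0.04, SE 0.09). Of 16 macrophage markers 14 had at least 10 counts in every library, Marco had at most 1 count and Cd163 was not analysed here. The summed level of the macrophage markers was 15830 and 15980 TPM in shMettl3 libraries against 21430 and 20880 TPM in Control libraries. Lyz2, with 5955 and 5779 TPM in shMettl3 libraries against 10293 and 9350.3 TPM in Control libraries, carried the largest part of this sum. Of 14 tested macrophage markers 9 were lower, and 2 were higher, Fcer1g (0.49) and Ptprc (0.57). Fcgr1 (0.83), Spi1 (-0.06) and Mrc1 (-1.04) were not called. The 5 of 8 fibroblast markers in the table summed to 1.5 and 0.58 TPM in shMettl3 libraries against 0.09 and 0.12 TPM in Control libraries, and Col1a1, Col1a2 and Col3a1 had between 15 and 17 counts in shMettl3 replicate 1 and at most 1 elsewhere. Pdgfrb was called higher, with 20 and 15 counts in shMettl3 libraries against 5 and 4 counts in Control libraries (1.89), and Dcn, not tested, had 4 and 5 counts in shMettl3 libraries against 0 and 1 counts in Control libraries. T cell markers summed to 6.17 and 4.61 TPM in shMettl3 libraries against 5.25 and 4.65 TPM in Control libraries, B cell markers to 0.18 and 0.25 TPM in shMettl3 libraries against 0.27 and 0.18 TPM in Control libraries and neutrophil markers to 39.4 and 38.9 TPM in shMettl3 libraries against 36.4 and 37.0 TPM in Control libraries. Only 3 of 7 T cell, 2 of 5 B cell and 3 of 6 neutrophil markers were in the table. S100a8 made up nearly all of the neutrophil sum and Lck most of the T cell sum, and neither gene was called. The part of these levels in the results was not tested.

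Whether the translation factor genes took a lower share of the transcriptome in shMettl3 libraries depends on the unit. Of the estimated counts they took 3.02% and 3.07% in shMettl3 libraries against 3.14% and 3.17% in Control libraries, lower with no overlap. Their TPM values, levels per transcript length as the authors deposited them, made up 2.69% and 2.72% of the total in shMettl3 libraries and 2.74% and 2.71% in Control libraries, where the groups overlap. Eef1a1, which delivers aminoacyl-tRNAs, was the most abundant, with 10869 and 11159.6 TPM in shMettl3 libraries against 11208 and 11023 TPM in Control libraries. Eif5a, Eef2, Eif4a1 and Eef1g followed in order of mean TPM. At the other end, Eef1a2, the paralog used in muscle and neurons, had at most 1 count in any library. Of the 61 genes, 56 had at least 10 TPM in every library and 37 at least 100 TPM. Eef1a2 alone fell below the filter on low counts, which left 60 genes in the test.

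Many factor genes changed, by small amounts. Levels below are CPM, counts scaled by library size and TMM factors. Fold changes are shMettl3 over Control on the log2 scale, from an edgeR quasi-likelihood fit over 11035 genes, and genes with a Benjamini-Hochberg adjusted p under 0.05 are called higher or lower. Values in brackets after a gene are its log2 fold change and the SE. In bulk libraries a smaller number of cells with a transcript and less of it per cell cannot be told apart. Of the 60 tested factor genes, 9 were higher and 20 lower in shMettl3 cells. That is 48.3%, where the background over all tested genes was 43.7%. By direction, 15% of the factors were higher beside a background of 21.4%, and 33.3% were lower beside 22.3%. The groups did not overlap in CPM for 49 factors, or 81.7%, where the background was 73.4%: 13 had all shMettl3 values above (37.1% of all genes) and 36 had all below (36.3% of all genes).

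The sizes were narrow. The log2 fold change reached 0.5 in either direction for 2 factors (3.33%), the methyltransferase genes Eef1akmt3 and Eef2kmt, against 26.1% of all tested genes. Among genes with a mean of at least 20 TPM it did so for 0 of 55 factors and for 17.1% of all. In the edgeR test against a 1.5-fold change 1 factor was higher, Eef1akmt3, and 0 were lower, and the same numbers had an unadjusted p under 0.05. The background of that test was 8.63%, made up of 3.76% higher and 4.87% lower.

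**Figure D1:**
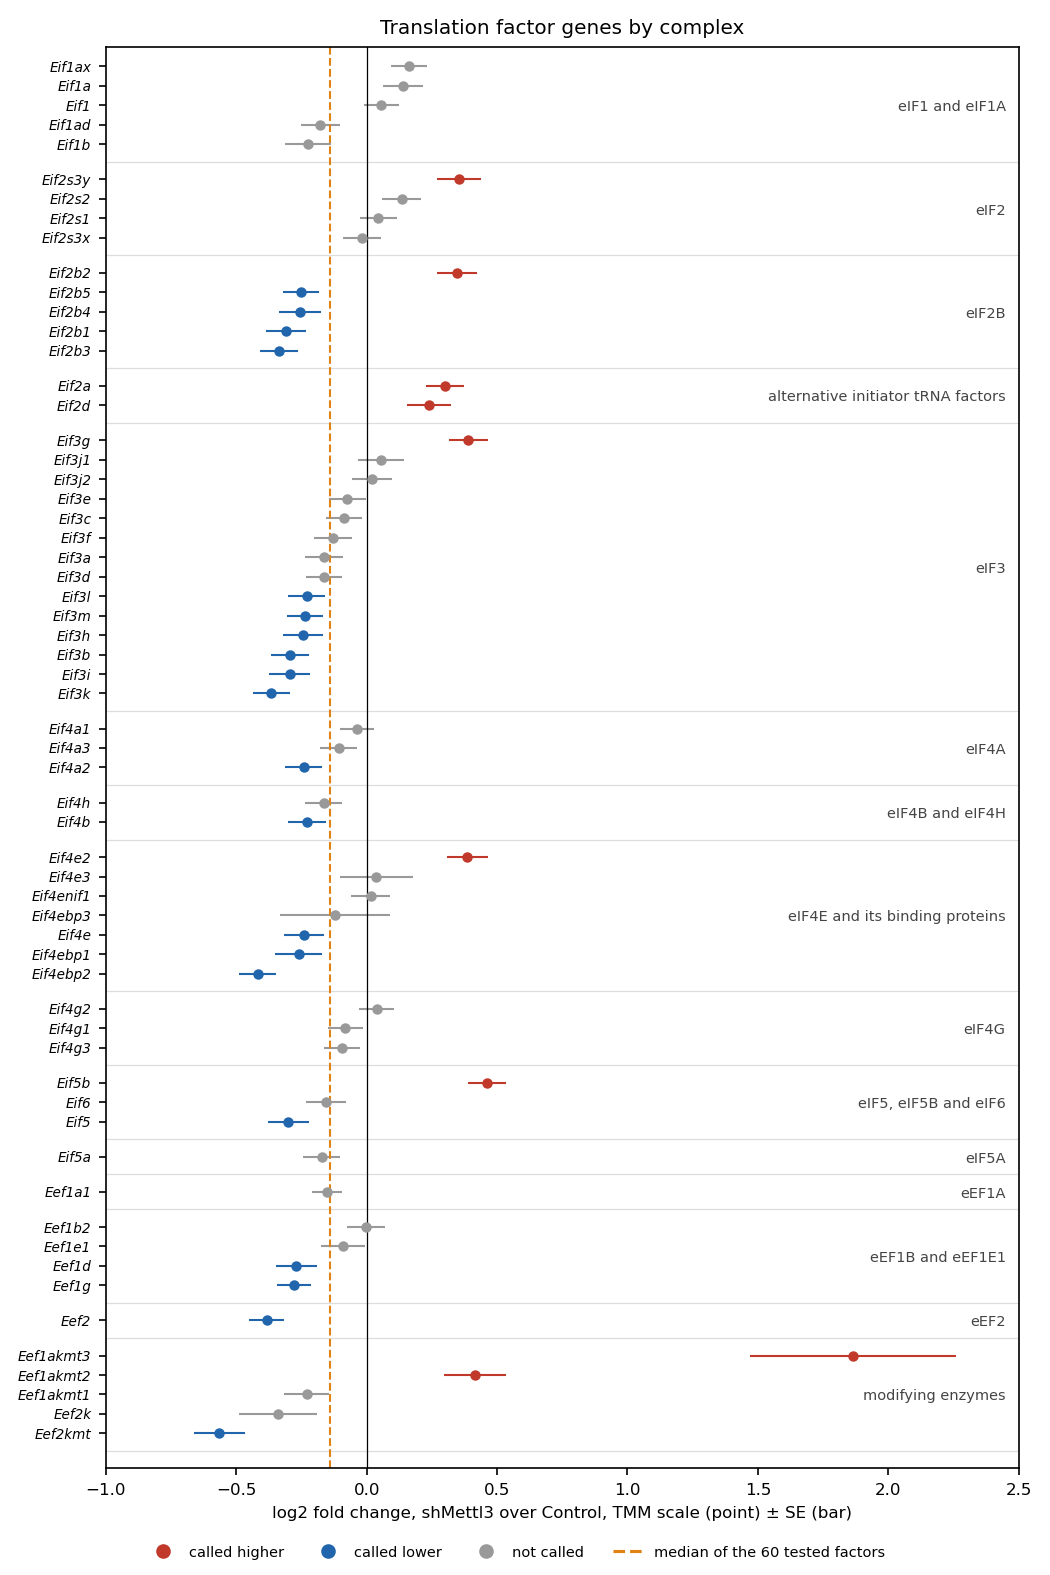
Log2 fold change of each of the 60 tested translation factor genes, shMettl3 over Control on the TMM scale (x axis), with its standard error as a bar (n = 2 libraries each), grouped by complex. All but 2 genes, Eef1akmt3 and Eef2kmt, lie between -0.5 and 0.5, and in eIF2B, eIF3 and the eIF4E group called genes lie on both sides of 0.

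The balance of higher and lower calls depends on the scaling, which moves all genes. The median log2 fold change of the tested factors was -0.14 with TMM, where the median of all tested genes was 0.01. With the authors' TPM values (log2 of TPM + 0.1, limma) it was -0.0028, and the median of all genes was 0.15. With TPM 13 factors were called higher and 3 lower, with FPKM 12 and 5, and with library size alone 12 and 9. The median of the factors minus that of all genes stayed between -0.19 and -0.13 over TMM and 14 alternatives. Of the calls over all genes, 48.9% were higher with TMM, 69.9% with TPM, 63% with FPKM and 64.1% with library size alone. Of 11035 genes, 3508 were called higher and 1509 lower with TPM, 2988 and 1758 with FPKM, and 3266 and 1832 with library size alone. In all, 45.5% were called with TPM, 43% with FPKM and 46.2% with library size alone, the background for the splits below. Small differences below are thus relative to TMM. Ratios of the TPM of 2 factors within a library do not depend on the scaling between libraries, and are given as descriptions for pairs chosen after the values were seen.

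**Figure D2:**
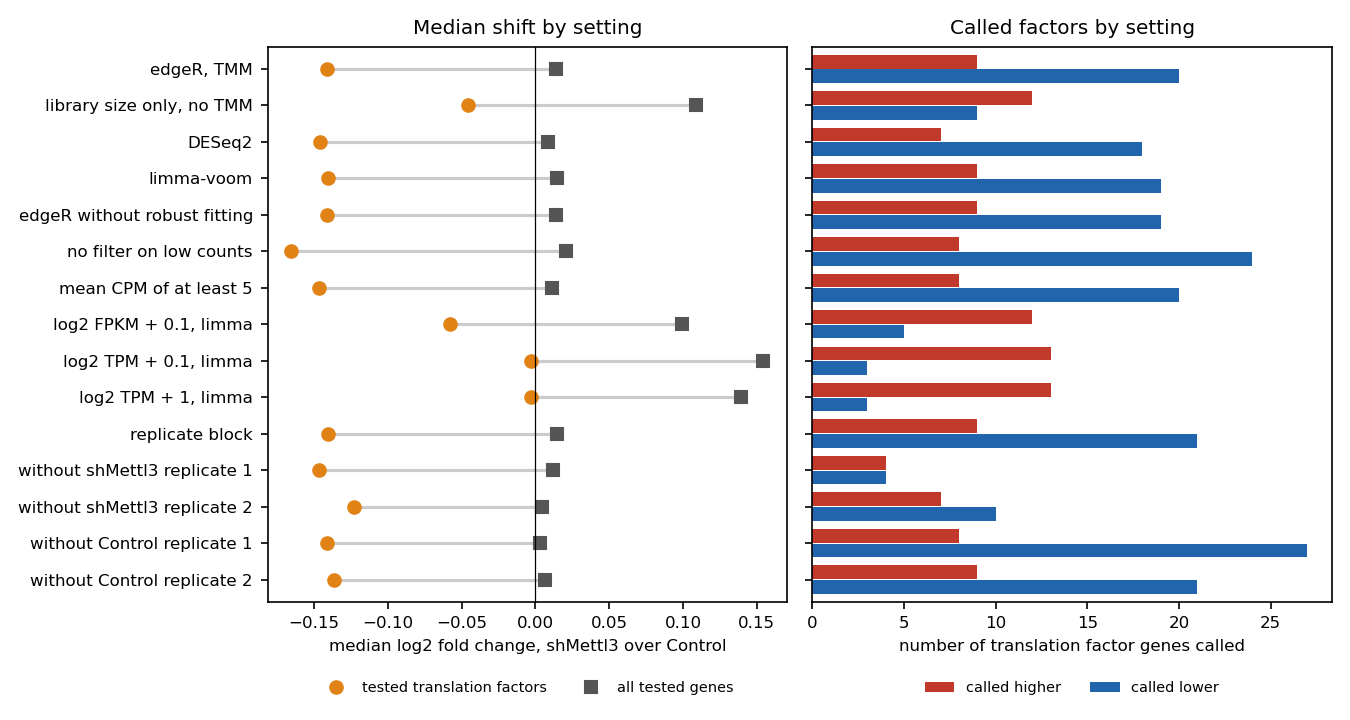
Left, median log2 fold change (shMettl3 over Control, x axis) of the tested translation factors and of all tested genes under each setting; right, number of factors called higher and lower. With TMM the medians were -0.14 and 0.01, and with TPM + 0.1 they were -0.0028 and 0.15.

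Calls also change when a library is left out, over all genes as well as among the factors. The ranges of these calls are given under processing, beside that over all genes. Without shMettl3 replicate 1 the median log2 fold change was -0.15 over the factors and 0.01 over all tested genes. Without shMettl3 replicate 2 the medians were -0.12 and 0.0044. Leaving out Control replicate 1 gave -0.14 and 0.0029, and leaving out Control replicate 2 gave -0.14 and 0.0063. All 29 called factors kept their direction in every alternative that tested them. The call held in all 14 for 6 of them: Eif5b, Eif3g and Eif4e2, which were higher, and Eef2, Eif3k and Eef2kmt, which were lower.

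The promoter windows of these 6 genes are printed so that the 3 that rose can be set beside the 3 that fell. Each runs from 250 bases before to 50 bases after the start farthest upstream, 5′ to 3′ on the gene's strand, from RefSeq on GRCm38.p6, whereas the submitters' processing notes name mm9. RefSeq windows were matched for 46 of the 61 genes. Capitals mark matches on either strand to CACGTG (the E-box of MYC and its relatives), CCGGAAG (an ETS factor core), TATAAA and CCAAT.
Eif5b promoter (chr1:37997760-37998059, plus strand): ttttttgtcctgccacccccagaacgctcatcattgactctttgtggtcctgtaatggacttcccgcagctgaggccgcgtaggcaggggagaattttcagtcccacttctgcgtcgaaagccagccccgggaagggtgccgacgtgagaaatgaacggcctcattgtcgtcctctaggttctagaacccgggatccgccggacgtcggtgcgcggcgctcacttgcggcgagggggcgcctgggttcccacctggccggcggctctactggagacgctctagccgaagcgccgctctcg
Eif3g promoter (chr9:20898541-20898840, minus strand): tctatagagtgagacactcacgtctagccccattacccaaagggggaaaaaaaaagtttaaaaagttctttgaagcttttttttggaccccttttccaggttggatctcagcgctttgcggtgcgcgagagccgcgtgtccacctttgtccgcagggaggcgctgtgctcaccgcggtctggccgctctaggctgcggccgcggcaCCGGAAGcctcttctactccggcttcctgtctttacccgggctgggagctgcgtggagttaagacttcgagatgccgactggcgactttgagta
Eif4e2 promoter (chr1:87213661-87213960, plus strand): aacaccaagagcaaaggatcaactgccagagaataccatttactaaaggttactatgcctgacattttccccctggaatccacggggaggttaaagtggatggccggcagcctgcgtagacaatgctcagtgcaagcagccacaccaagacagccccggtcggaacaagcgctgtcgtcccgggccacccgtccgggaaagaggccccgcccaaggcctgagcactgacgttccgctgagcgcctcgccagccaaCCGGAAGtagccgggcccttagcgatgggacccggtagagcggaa
Eif3k promoter (chr7:28981839-28982138, minus strand): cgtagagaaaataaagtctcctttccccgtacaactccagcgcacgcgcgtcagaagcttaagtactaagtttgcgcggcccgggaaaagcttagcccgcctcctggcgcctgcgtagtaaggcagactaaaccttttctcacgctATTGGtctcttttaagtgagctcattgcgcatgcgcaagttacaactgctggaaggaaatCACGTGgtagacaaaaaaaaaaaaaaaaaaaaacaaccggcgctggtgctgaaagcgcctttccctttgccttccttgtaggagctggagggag
Eef2 promoter (chr10:81176381-81176680, plus strand): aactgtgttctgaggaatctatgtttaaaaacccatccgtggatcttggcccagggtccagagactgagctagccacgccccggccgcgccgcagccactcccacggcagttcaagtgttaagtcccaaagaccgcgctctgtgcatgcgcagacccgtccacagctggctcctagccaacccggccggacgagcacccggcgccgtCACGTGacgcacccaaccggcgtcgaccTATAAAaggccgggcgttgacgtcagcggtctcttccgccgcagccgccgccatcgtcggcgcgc
Eef2kmt promoter (chr16:5255907-5256206, minus strand): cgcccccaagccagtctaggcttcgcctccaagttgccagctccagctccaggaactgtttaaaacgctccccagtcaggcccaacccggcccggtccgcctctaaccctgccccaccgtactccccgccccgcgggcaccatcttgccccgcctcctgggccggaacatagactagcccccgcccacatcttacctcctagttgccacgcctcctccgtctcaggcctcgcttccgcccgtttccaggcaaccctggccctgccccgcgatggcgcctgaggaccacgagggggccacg

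CACGTG is in the windows of Eef2 and Eif3k, CCGGAAG in those of Eif3g and Eif4e2, TATAAA in that of Eef2 and CCAAT in that of Eif3k. The windows of Eif5b and Eef2kmt hold none of these letters. Over the 46 genes, CACGTG was in 9 factor windows (19.6%), against 10.6% of tested genes. By call it was in 0 of 8 higher, 2 of 14 lower and 7 of 23 not called. CCGGAAG was in 13 factor windows (28.3%), against 20.2% of tested genes. By call it was in 3 of 8 higher, 4 of 14 lower and 6 of 23 not called. TATAAA was in 5 factor windows (10.9%), against 6.73% of tested genes, and by call in 1, 2 and 2. CCAAT was in 11 factor windows (23.9%), against 39.9% of tested genes, and by call in 1, 5 and 5. Many mRNAs of the translation machinery begin with a run of pyrimidines through which mTORC1 controls their translation. A C followed by pyrimidines, at least 5 in all and beginning within 10 bases of the annotated start, was in 13 factor windows (28.3%), against 32.1% of tested genes. Runs that begin farther from that start were not counted, as those in the printed windows of Eef2 and Eif3k. The search therefore cannot show which mRNAs begin with such a run.

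Among the factors that join the subunits, Eif5b was higher and Eif5 lower. Eif5b, the GTPase that joins the large subunit, had 272 and 286 CPM in shMettl3 libraries against 198 and 207 CPM in Control libraries (0.46, SE 0.07, edgeR adjusted p = 0.000429). The groups do not overlap, and among the factors called higher its adjusted p was the smallest. On the opposite strand, Rev1 overlaps 15.9% of the exon bases of Eif5b in GENCODE M21, and no strand setting is given, so their reads may not be told apart. Rev1 was itself higher, with a mean of 34.0 CPM in shMettl3 libraries against 22.1 CPM in Control libraries. Eif5, the GTPase activator that acts on eIF2 at the start codon, had 378 and 374 CPM in shMettl3 libraries against 493 and 435 CPM in Control libraries (-0.30, SE 0.08, edgeR adjusted p = 0.00918), and 9 of 14 alternatives kept the call. The ratio of Eif5b to Eif5 in TPM was 0.359 and 0.3802 in shMettl3 libraries against 0.1998 and 0.237 in Control libraries. Eif6, which keeps the large subunit from joining too early, was not called (-0.16, SE 0.08).

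Within eIF3, the complex that holds the small subunit during mRNA recruitment, 1 subunit gene was higher and 6 were lower of 14 tested, 50% in all beside the background of 43.7%. Scaled as TPM, the split was 1 higher and 1 lower, with FPKM 1 higher and 1 lower and with library size alone 1 higher and 2 lower. Eif3g was the gene called higher and Eif3k among those called lower in each. Eif3g, an RNA-binding subunit, had 239.5 and 226 CPM in shMettl3 libraries against 169 and 186 CPM in Control libraries (0.39, SE 0.08, edgeR adjusted p = 0.0018). Eif3k, a small peripheral subunit, had 174 and 167 CPM in shMettl3 libraries against 215 and 224 CPM in Control libraries (-0.37, SE 0.07, edgeR adjusted p = 0.00169). Neither gene's groups overlap. Neither shares a 50-base stretch, the read length, with an annotated transcript of another gene.

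Eif3b and Eif3i encode the neighbours of Eif3g in one module of the complex, and both were lower. Eif3b had 424 and 455 CPM in shMettl3 libraries against 523 and 554 CPM in Control libraries (-0.29, SE 0.07, edgeR adjusted p = 0.00745), a call kept in 10 of 14 alternatives. Eif3i had 165 and 179 CPM in shMettl3 libraries against 201 and 222 CPM in Control libraries (-0.30, SE 0.08, edgeR adjusted p = 0.0106), kept in 9 of 14. The shMettl3 libraries therefore lay on the high side for Eif3g and on the low side for its neighbours. In TPM the ratio of Eif3g to Eif3i was 1.51 and 1.32 in shMettl3 libraries against 0.881 and 0.876 in Control libraries, and that of Eif3g to Eif3b was 1.71 and 1.53 in shMettl3 libraries against 0.999 and 1.03 in Control libraries.

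Eif3h (-0.24, SE 0.08), Eif3m (-0.24, SE 0.07) and Eif3l (-0.23, SE 0.07) were lower too, each in 8 of 14 alternatives. The 7 eIF3 genes not called, among them Eif3a and Eif3c for the large core subunits, had log2 fold changes between -0.16 and 0.06. Eif3j1 and Eif3j2 are near copies: 91.8% of the 50-base stretches of Eif3j2 occur in other genes, so the division of their counts is uncertain. Leaving these copies out, mean levels per length ran from 136 TPM for Eif3a to 441 TPM for Eif3k.

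**Figure D3:**
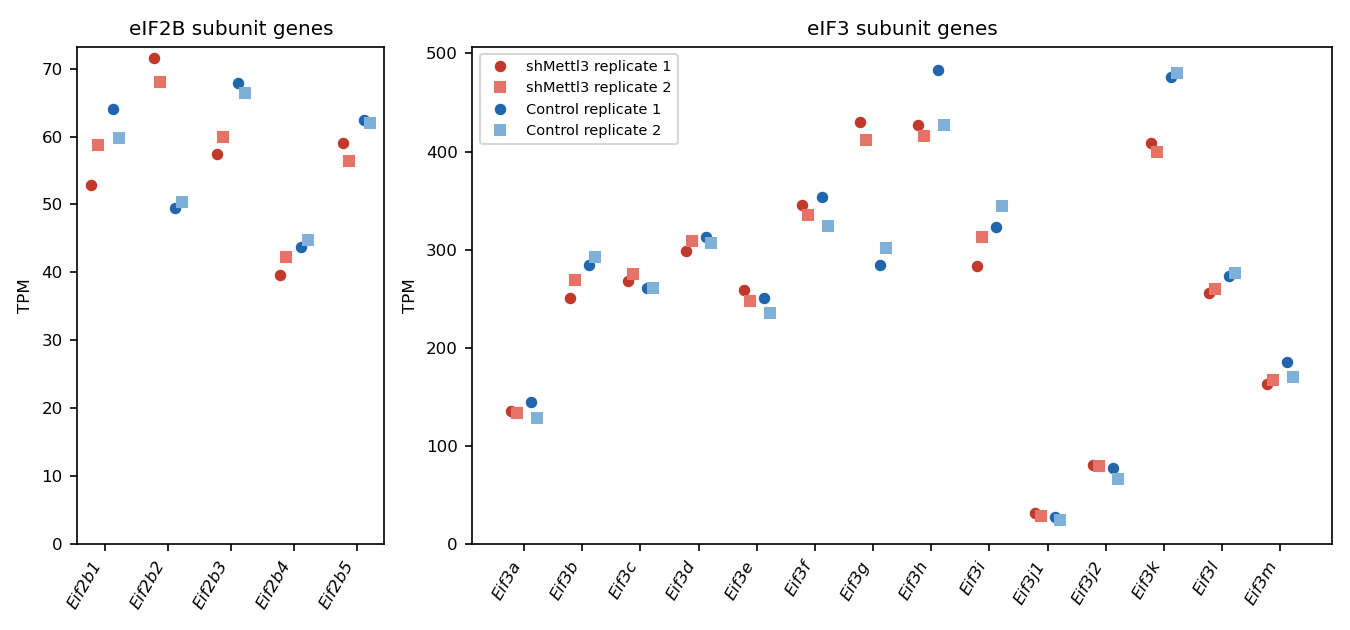
TPM (y axis, linear) of each eIF2B subunit gene (left) and each eIF3 subunit gene (right) in the 2 shMettl3 and 2 Control libraries, 1 point per library. For Eif2b2 and Eif3g both shMettl3 points lie above both Control points.

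All 5 genes of eIF2B, the exchange factor that phosphorylated eIF2 blocks, were called, 1 higher and 4 lower, beside the background of 43.7%. By direction, 20% were higher beside a background of 21.4%, and 80% were lower beside 22.3%. Eif2b2, the beta subunit, had 62.8 and 59.3 CPM in shMettl3 libraries against 46.8 and 49.2 CPM in Control libraries (0.35, SE 0.08, edgeR adjusted p = 0.00349). Without shMettl3 replicate 1 its edgeR adjusted p was 0.0526, and the other 13 alternatives kept the call. Eif2b3, the gamma subunit, had 49.1 and 51.1 CPM in shMettl3 libraries against 62.6 and 63.8 CPM in Control libraries (-0.33, SE 0.07, edgeR adjusted p = 0.00338), with 11 of 14 alternatives. Eif2b1, the alpha subunit, had 57.4 and 64.0 CPM in shMettl3 libraries against 76.4 and 74.1 CPM in Control libraries (-0.31, SE 0.08, edgeR adjusted p = 0.00751), with 10 of 14. For each of these genes the groups do not overlap.

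Eif2b5, the catalytic epsilon subunit, had 85.1 and 81.4 CPM in shMettl3 libraries against 97.9 and 100.4 CPM in Control libraries (-0.25, SE 0.07, edgeR adjusted p = 0.0126), a call kept in 8 of 14 alternatives. Eif2b4, the delta subunit, had 38.3 and 40.6 CPM in shMettl3 libraries against 45.9 and 48.4 CPM in Control libraries (-0.26, SE 0.08, edgeR adjusted p = 0.0222), kept in 7 of 14. With TPM + 0.1 the 4 genes that were lower had log2 fold changes between -0.19 and -0.11, and limma called none of them. With FPKM 1 of the 4 was called lower, and with library size alone 2. The ratio of Eif2b2 to Eif2b4 in TPM was 1.81 and 1.61 in shMettl3 libraries against 1.13 and 1.13 in Control libraries, and to Eif2b5 it was 1.21 and 1.21 in shMettl3 libraries against 0.793 and 0.813 in Control libraries. The 5 genes summed to 280.4 and 285 TPM in shMettl3 libraries against 287 and 283 TPM in Control libraries, and these sums overlap.

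Of the eIF2 subunits, 1 of 4 tested genes was higher, 25% beside the background of 21.4%, and 0 were lower. Eif2s3y, the gamma subunit gene on the Y chromosome, had 72.7 and 69.4 CPM in shMettl3 libraries against 59.6 and 51.6 CPM in Control libraries (0.35, SE 0.08, edgeR adjusted p = 0.00567), and 13 of 14 alternatives kept the call. Its X-linked counterpart Eif2s3x was not called (-0.02, SE 0.07), and the ratio of Eif2s3x to Eif2s3y in TPM was 1.68 and 1.71 in shMettl3 libraries against 2.08 and 2.24 in Control libraries. Eif2s1, the subunit that stress kinases phosphorylate (0.04, SE 0.07), and Eif2s2 (0.13, SE 0.07) were not called. With TPM, FPKM and library size alone Eif2s2 was called higher as well, 2 of 4 in each.

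Eif2a and Eif2d, which can bring initiator tRNA to the ribosome without eIF2, were both higher. Eif2a had 88.9 and 83.3 CPM in shMettl3 libraries against 71.9 and 68.0 CPM in Control libraries (0.30, SE 0.07, edgeR adjusted p = 0.00673), kept in 13 of 14 alternatives. Eif2d had 34.1 and 34.7 CPM in shMettl3 libraries against 28.3 and 29.9 CPM in Control libraries (0.24, SE 0.08, edgeR adjusted p = 0.0406), kept in 9 of 14. Serp1, which was also higher, overlaps 3.13% of the exon bases of Eif2a on the opposite strand.

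Of the 5 genes named for eIF1 or eIF1A, edgeR and DESeq2 called 0, beside backgrounds of 43.7% and 31.5%. In edgeR 3 of them had an unadjusted p under 0.05, and with no filter on low counts 1 was called lower, Eif1b. Log2 fold changes were 0.06 for Eif1, 0.14 for Eif1a, 0.16 for Eif1ax, -0.22 for Eif1b and -0.18 for Eif1ad, with SE between 0.07 and 0.09. The split was 3 higher and 0 lower with TPM, with FPKM and with library size alone 2 higher and 0 lower. Under these scalings most calls over all genes were higher too, as given above. With TPM the genes called higher were Eif1, Eif1a and Eif1ax.

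Among the cap-binding proteins, Eif4e2 was higher and Eif4e lower. Eif4e2 encodes 4EHP, which binds the cap without eIF4G and acts in repression. It had 195 and 194 CPM in shMettl3 libraries against 139.7 and 158 CPM in Control libraries (0.39, SE 0.08, edgeR adjusted p = 0.00221). Eif4e, the cap-binding subunit of eIF4F, had 244 and 246 CPM in shMettl3 libraries against 305 and 274 CPM in Control libraries (-0.24, SE 0.08, edgeR adjusted p = 0.0255), kept in 8 of 14 alternatives, and in TPM its groups overlap. The ratio of Eif4e2 to Eif4e in TPM was 0.789 and 0.7797 in shMettl3 libraries against 0.459 and 0.5795 in Control libraries.

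The genes of the 4E-BP proteins, which sequester eIF4E until mTORC1 phosphorylates them, were partly lower in counts. Eif4ebp1 had 127 and 140.4 CPM in shMettl3 libraries against 147 and 173 CPM in Control libraries (-0.26, SE 0.09, edgeR adjusted p = 0.0392), kept in 5 of 14 alternatives. Eif4ebp2 had 65.3 and 61.4 CPM in shMettl3 libraries against 84.0 and 85.4 CPM in Control libraries (-0.42, SE 0.07, edgeR adjusted p = 0.000762), kept in 11 of 14. In TPM, however, Eif4ebp2 had 31.2 and 28.7 TPM in shMettl3 libraries against 31.5 and 29.1 TPM in Control libraries, and limma did not call it (-0.02). The effective length that its counts and FPKM imply was 3519.5 and 3554 bases in shMettl3 libraries against 4081 and 4351 bases in Control libraries, a ratio of 0.839. That ratio was under 0.9 or over 1.1 for 2 of 60 factors, Eif4ebp2 and Eef2k (1.16), and for 1.4% of 10105 tested genes. For Eef2k it rests on Control replicate 2, with 2986 bases, where Control replicate 1 had 3783 bases and shMettl3 libraries 3949 and 3869 bases. Eif4ebp3 (-0.12, SE 0.21), Eif4e3 (0.04, SE 0.14) and Eif4enif1, the eIF4E transporter (0.01, SE 0.07), were not called. The 7 genes of this group gave 1 higher and 3 lower with TMM, 57.1% beside the background of 43.7%. With TPM the calls were 1 higher and 0 lower, with FPKM 1 higher and 0 lower and with library size alone 1 higher and 1 lower.

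Of the eIF4A helicases, Eif4a2 was lower, with 152 and 141 CPM in shMettl3 libraries against 172 and 175 CPM in Control libraries (-0.24, SE 0.07, edgeR adjusted p = 0.0185), kept in 8 of 14 alternatives. Its abundant paralog Eif4a1 had 1883 and 1779 CPM in shMettl3 libraries against 1894 and 1861 CPM in Control libraries and was not called (-0.04, SE 0.07). In TPM Eif4a1 had 1809 and 1715 TPM in shMettl3 libraries against 1681 and 1601 TPM in Control libraries, so the sign of its difference turns with the scaling. 65.3% of its 50-base stretches occur in other annotated genes. Eif4a3, the helicase of the exon junction complex, was not called (-0.11, SE 0.07). Eif4b, a helicase cofactor, was lower (-0.23, SE 0.07, edgeR adjusted p = 0.0245), kept in 8 of 14 alternatives, and Eif4h was not called (-0.16, SE 0.07). With TPM, FPKM or library size alone none of these helicase and cofactor genes was called. Of the scaffold genes Eif4g1 (-0.08, SE 0.07), Eif4g2 (0.04, SE 0.07) and Eif4g3 (-0.10, SE 0.07) edgeR and DESeq2 called 0, beside backgrounds of 43.7% and 31.5%. None had an unadjusted p under 0.05 in edgeR.

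**Figure D4:**
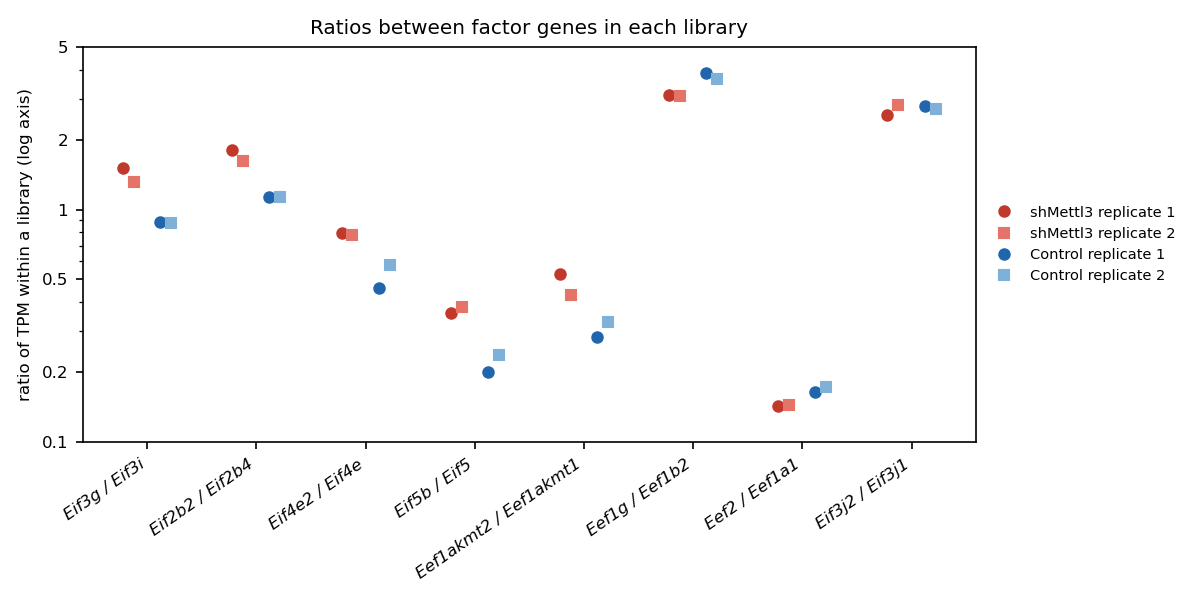
Ratio of the TPM of 2 factor genes within each library (y axis, log scale), 1 point per library, which does not depend on the scaling between libraries. The shMettl3 points lie above the Control points for Eif3g over Eif3i, Eif2b2 over Eif2b4, Eif4e2 over Eif4e and Eif5b over Eif5, and below them for Eef1g over Eef1b2 and Eef2 over Eef1a1.

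In elongation, Eef2, the translocase, was lower and called in all 14 alternatives. It had 2754 and 2850.2 CPM in shMettl3 libraries against 3525 and 3785 CPM in Control libraries (-0.38, SE 0.07, edgeR adjusted p = 0.00082), and the groups do not overlap. Eef1a1 had 10728 and 10969 CPM in shMettl3 libraries against 11967 and 12146 CPM in Control libraries and missed the threshold (-0.15, SE 0.06, edgeR adjusted p = 0.0551). The ratio of Eef2 to Eef1a1 in TPM was 0.143 and 0.144 in shMettl3 libraries against 0.163 and 0.173 in Control libraries. 60.6% of the 50-base stretches of Eef1a1 occur in other annotated genes, so its counts depend on how such reads were assigned. Eif5a, which carries hypusine and eases difficult peptide bonds, had 1332 and 1322 CPM in shMettl3 libraries against 1429.6 and 1563 CPM in Control libraries and was not called (-0.17, SE 0.07, edgeR adjusted p = 0.0645).

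Of the eEF1B subunits, which recharge eEF1A, Eef1g and Eef1d were lower and Eef1b2 was not called. Eef1g, the scaffold subunit, had 1159.7 and 1183 CPM in shMettl3 libraries against 1409 and 1433 CPM in Control libraries (-0.28, SE 0.06, edgeR adjusted p = 0.00504), kept in 11 of 14 alternatives. Eef1d had 157 and 169 CPM in shMettl3 libraries against 186 and 208 CPM in Control libraries (-0.27, SE 0.08, edgeR adjusted p = 0.0169), kept in 8 of 14. Eef1b2 was at -0.0018, SE 0.07, and the ratio of Eef1g to Eef1b2 in TPM was 3.11 and 3.07 in shMettl3 libraries against 3.87 and 3.64 in Control libraries. 64.3% of the 50-base stretches of Eef1g occur in other genes. Eef1e1, of the multisynthetase complex, was not called (-0.09, SE 0.08). With TPM 0 of these 4 genes were called lower, and with FPKM and with library size alone 1.

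The 2 factor genes with the largest log2 fold changes by size encode enzymes that methylate elongation factors. Eef1akmt3, a lysine methyltransferase of eEF1A, had 22 and 35 counts in shMettl3 libraries against 8 and 7 counts in Control libraries (1.86, SE 0.40, edgeR adjusted p = 0.00298). The groups do not overlap, but counts are low, and without shMettl3 replicate 2 the edgeR adjusted p was 0.0518. Eef2kmt, the methyltransferase of eEF2, had 20.4 and 18.2 CPM in shMettl3 libraries against 29.0 and 28.0 CPM in Control libraries (-0.56, SE 0.10, edgeR adjusted p = 0.000877). 28.3% of its exon bases are overlapped on the opposite strand, by Alg1 among others, and Alg1 was not called (-0.07).

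Eef1akmt2, another methyltransferase of eEF1A, was higher, with 19.2 and 16.8 CPM in shMettl3 libraries against 12.8 and 14.2 CPM in Control libraries (0.42, SE 0.12, edgeR adjusted p = 0.0149), kept in 12 of 14 alternatives. Eef1akmt1 was not called (-0.23, SE 0.09), and the ratio of Eef1akmt2 to Eef1akmt1 in TPM was 0.5297 and 0.4298 in shMettl3 libraries against 0.284 and 0.327 in Control libraries. Eef2k, the kinase that inhibits eEF2, had 6.60 and 6.90 CPM in shMettl3 libraries against 7.88 and 9.22 CPM in Control libraries and was not called (-0.34, SE 0.15, edgeR adjusted p = 0.0851).

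Around these factors, 8 of 15 tested regulators of eIF2 and genes of the integrated stress response were higher and 1 lower, 60% beside the background of 43.7%, with a median log2 fold change of 0.30. Scaled as TPM, the split was 9 higher and 0 lower, with FPKM and with library size alone 8 higher and 0 lower. In this response phosphorylated eIF2 lowers general initiation and raises ATF4. Trib3, a pseudokinase that the response induces, had 17.2 and 16.5 CPM in shMettl3 libraries against 6.14 and 8.44 CPM in Control libraries (1.21, SE 0.15, edgeR adjusted p = 8.61e-05). Atf5, a relative of ATF4, had 82.9 and 83.7 CPM in shMettl3 libraries against 38.5 and 38.8 CPM in Control libraries (1.11, SE 0.07, edgeR adjusted p = 7.99e-07). Ppp1r15b, which directs a phosphatase to eIF2, had 197 and 176 CPM in shMettl3 libraries against 109 and 96.9 CPM in Control libraries (0.86, SE 0.08, edgeR adjusted p = 1.81e-05). Chac1, an enzyme that degrades glutathione, was low in level, with 2.56 and 2.82 CPM in shMettl3 libraries against 1.505 and 1.02 CPM in Control libraries (1.08, SE 0.28, edgeR adjusted p = 0.0094). In all 4 of these genes the groups do not overlap.

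The other genes of the list were named after their values were seen. Dnajc3 (0.83, SE 0.07), Ddit3 for CHOP (0.71, SE 0.12), Atf4 (0.30, SE 0.08) and Ppp1r15a for GADD34 (0.28, SE 0.09) were also higher. Of the kinases that phosphorylate eIF2, Eif2ak1 was lower (-0.21, SE 0.07), and Eif2ak2 (0.41, SE 0.18), Eif2ak3 (0.10, SE 0.15) and Eif2ak4 (-0.22, SE 0.10) were not called.

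**Figure D5:**
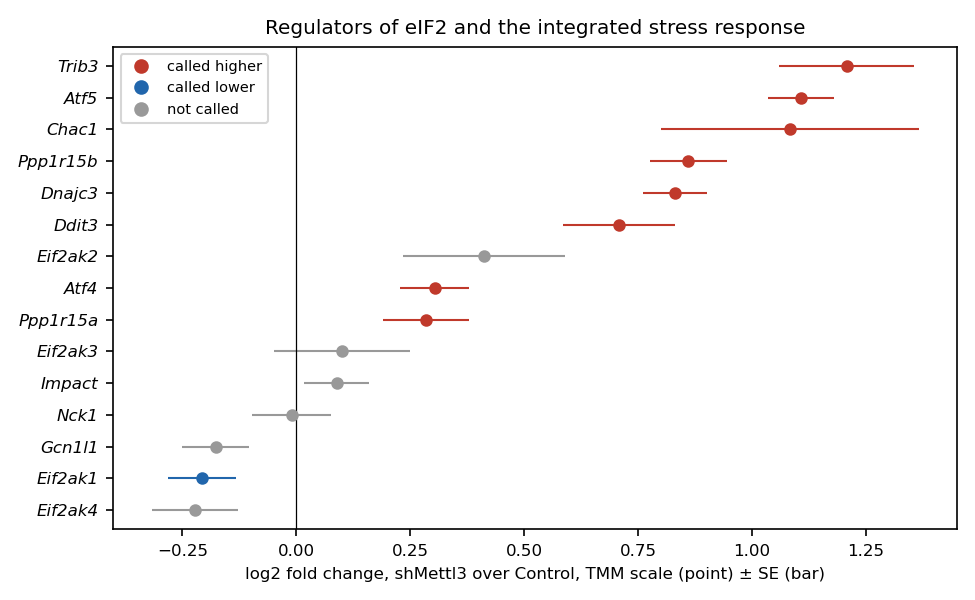
Log2 fold change (shMettl3 over Control, TMM scale, x axis) with its standard error as a bar (n = 2 libraries each) for the 15 tested regulators of eIF2 and genes of the integrated stress response. 8 of them were called higher and 1, Eif2ak1, lower.

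Of 18 tested genes of mTORC1 signalling to eIF4E, 2 were higher and 2 lower (22.2%, beside the background of 43.7%), with a median of -0.10. The split was 4 higher and 0 lower with TPM, with FPKM 2 higher and 1 lower and with library size alone 4 higher and 1 lower. Calls over all genes, given above, also lean to the higher side under these scalings. Gigyf2, the partner of the Eif4e2 protein in repression, had 85.8 and 93.2 CPM in shMettl3 libraries against 72.4 and 65.1 CPM in Control libraries (0.38, SE 0.08, edgeR adjusted p = 0.00272). Mknk2, a kinase of eIF4E, had 63.9 and 66.4 CPM in shMettl3 libraries against 80.0 and 86.3 CPM in Control libraries (-0.35, SE 0.07, edgeR adjusted p = 0.00267). Tbc1d7, a subunit of the TSC complex, was higher (0.37, SE 0.13), and Tsc2, the GTPase activator in that complex, was lower (-0.26, SE 0.08).

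Of 10 tested poly(A)-binding proteins and partners, 3 were higher and 2 lower (50%, beside the background of 43.7%), with a median of -0.02. With TPM the calls were 4 higher and 1 lower, with FPKM and with library size alone 3 higher and 1 lower, where most calls over all genes were higher too. Paip2, an inhibitor of the poly(A)-binding protein, had 62.6 and 65.0 CPM in shMettl3 libraries against 42.8 and 43.9 CPM in Control libraries (0.56, SE 0.07, edgeR adjusted p = 0.00013), and its paralog Paip2b was higher too (0.37, SE 0.11). Pan3, of a deadenylase, was higher (0.30, SE 0.09), and Tob2, which binds a deadenylase, was lower (-0.46, SE 0.08). Pabpc1, the poly(A)-binding protein that contacts eIF4G, was lower (-0.25, SE 0.06) and is named after its values were seen. Without shMettl3 replicate 1 edgeR called 2 of the 10.

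Of 12 tested termination and recycling factors, 3 were higher and 1 lower (33.3%, beside the background of 43.7%), with a median of 0.19. Scaled as TPM, the split was 7 higher and 0 lower, with FPKM 7 higher and 0 lower and with library size alone 6 higher and 0 lower. With TPM 45.5% of all tested genes were called, and 69.9% of those calls were higher. Denr, which acts in recycling and reinitiation, had 267 and 262 CPM in shMettl3 libraries against 190.3 and 206 CPM in Control libraries (0.42, SE 0.07, edgeR adjusted p = 0.00094). Nemf (0.25, SE 0.07) and Hbs1l (0.21, SE 0.07), both of ribosome rescue, were higher, and the recycling ATPase gene Abce1 was lower (-0.28, SE 0.08). Without shMettl3 replicate 1 edgeR called 1 of them, as it did without shMettl3 replicate 2.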

How the data were processed

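For 14435 genes the authors deposited estimated counts (not normalized), FPKM and TPM values for each library, per the file headers. The submitters' processing notes list HISAT2 2.0.4, Bowtie2 2.2.5, RSEM 1.2.12 and mm9, without saying what each was used for. Annotation, filters and strand settings were not given in any source used. Priming was on poly(A), per the labels' protocols, and cDNA was amplified by PCR and read as single ends of 50 bases, and no molecular identifiers are mentioned, so errors cover counting and the spread between libraries only. Estimated counts, not whole for 12.5% of genes, were rounded.

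The counts were fitted with edgeR 4.0.16 in R 4.3.3 (glmQLFit, robust; TMM; filterByExpr with a minimum count of 10 and total of 15) in 1 model of 4 libraries, with p-values adjusted over 11035 genes. The SE was derived from the fold change and the F statistic. Alternatives used limma 3.58.1 on log2 FPKM with a pseudocount of 0.1 or on log2 TPM with 0.1 or 1, limma-voom and DESeq2 1.42.0. The fits were run on simulated data with the same spread in every gene and library. The simulated libraries shared a scale, so they cannot show how calls depend on the scaling. There were 0 columns of other samples. Replicates differed by more than sampling noise (chi-square per degree of freedom 4.15 for shMettl3 and 11.5 for Control).

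Full values go to called factors in order of fold change, with groups that do not overlap and at least 1 TPM in the higher group, and to the 5 most abundant, 25 in all; in each pathway list up to 4 called genes are named in the same order. Other genes are given more briefly, apart from Eif4e, Eif4a2, Eif2d and Eef2k, which have full values although they are outside this rule. The members and lists were chosen with earlier results of these data known. Shared 50-base stretches were counted between the longest coding GENCODE M21 transcript of a gene and the transcripts of other genes. Implied lengths are counts over FPKM and library total.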

Additional observations from a re-analysis of the deposited data

How the results depend on the processing

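With 2 libraries a group, fits that leave out 1 library assume that the lone library varies like those of the other group. In these fits the factors called higher numbered between 4 and 9 (9 with all libraries), those called lower between 4 and 27 (20), and all genes called between 3095 and 5324 (4826), and the median log2 fold change of the factors lay between -0.1463 and -0.1229. Factors called lower were 9 with library size alone, 5 with FPKM, and 3 with TPM + 0.1 and with TPM + 1. The median was -0.0458 with library size alone, -0.058 with FPKM, -0.0028 with TPM + 0.1 and with TPM + 1, -0.1655 with no filter and -0.1468 with a mean of at least 5 CPM, a filter that removed Eef1akmt3. The edgeR test against a 1.5-fold change, chosen after seeing the data, called 1 factor higher and 0 lower, as did an unadjusted p under 0.05. Eif4a1, never called, was at 0.0585 with library size alone, 0.0474 with FPKM, 0.1027 with TPM + 0.1, 0.1026 with TPM + 1, 0.0033 without shMettl3 replicate 2 and -0.0764 without shMettl3 replicate 1.

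Over all tested genes DESeq2 called 31.5%, where edgeR called 43.7%. DESeq2 called 2 genes of mTORC1 signalling (4 in edgeR), 3 poly(A)-binding proteins and partners (5), 2 termination factors (4) and 2 mitochondrial factors (6). FPKM, and TPM with either pseudocount, called 7 termination factors. Without 1 library the calls were between 6 and 9 for eIF2 regulators, 3 and 6 for mTORC1 signalling, 2 and 5 for poly(A)-binding proteins, 1 and 6 for termination factors, 2 and 6 for hypusine and diphthamide enzymes and 1 and 6 for mitochondrial factors. For mitochondrial factors the calls were 1 without shMettl3 replicate 1 and 2 without shMettl3 replicate 2, and for hypusine and diphthamide enzymes 3 and 2. The cause was not tested.

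Replicate numbers are not said to pair the libraries. With the replicate number as a block 9 factors were higher and 21 lower, and Eef1a1 was called lower (edgeR adjusted p = 0.0472). Deviations of same-numbered libraries from their group means correlated at 0.163 across genes.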

Other observations

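Of 16 tested genes for hypusine on eIF5A, diphthamide on eEF2 and the polyamines 2 were higher and 3 lower (31.2%, beside the background of 43.7%). The split was 5 higher and 0 lower with TPM, with FPKM and with library size alone 5 higher and 1 lower. Over all tested genes 45.5% were called with TPM, and 69.9% of those calls were higher. Odc1, ornithine decarboxylase, had 2308 and 2495 CPM in shMettl3 libraries against 1972 and 1859 CPM in Control libraries (0.33, SE 0.07, edgeR adjusted p = 0.00305). Oaz2, an antizyme that inhibits ornithine decarboxylase, had 57.6 and 59.4 CPM in shMettl3 libraries against 40.6 and 37.7 CPM in Control libraries (0.58, SE 0.08, edgeR adjusted p = 0.000141). Sms, spermine synthase (-0.36, SE 0.08), and Dohh, which completes hypusine (-0.27, SE 0.08), were lower. Azin1, the antizyme inhibitor, was lower as well (-0.22, SE 0.08) and is named after its values were seen. Of 7 tested diphthamide genes edgeR called 0, and 1 had an unadjusted p under 0.05.

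Of 14 tested factors of mitochondrial translation 3 were higher and 3 lower (42.9%, beside the background of 43.7%). With TPM the calls were 4 higher and 0 lower, with FPKM and with library size alone 4 higher and 1 lower, where most calls over all genes were higher too. Mtfmt, which formylates the initiator methionine, had 26.3 and 24.6 CPM in shMettl3 libraries against 16.8 and 15.0 CPM in Control libraries (0.68, SE 0.10, edgeR adjusted p = 0.000393). Tufm, the mitochondrial counterpart of eEF1A, had 103 and 112 CPM in shMettl3 libraries against 126 and 144 CPM in Control libraries (-0.33, SE 0.08, edgeR adjusted p = 0.00815). The release factor gene Mtrf1l was higher (0.41, SE 0.14), and Gatb was lower (-0.31, SE 0.09).

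The effective lengths implied by counts and FPKM exceeded those of Control replicate 1 by a median of 25.5 bases over the tested factors in shMettl3 replicate 1, by 0.625 bases in shMettl3 replicate 2 and by 0.8 bases in Control replicate 2.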
